A study of Mus musculus with 16 samples.

Results

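The heat shock chaperones examined here are 10 genes: Hsph1, Dnajb1, Hspa8, Hsp90aa1, Hsp90ab1, Hspb1, Cryab, Bag3, Hspd1 and Hspa4. They were chosen by symbol, and each gene was read from its probe set of highest mean signal over the 16 arrays. Of the 10 genes, 9 had a probe set assigned to that symbol alone, among 35556 probe sets in all, and all 9 passed the filter on low signal that left 21333 probe sets for testing. Hsp90ab1, the constitutive cytosolic HSP90, was not analysed here. The arrays measured RNA of hearts from male C57BL/6 mice, 1 array per mouse and 4 mice in each of 4 groups. The groups were zbtb17 cKO mice after transverse aortic constriction (cKO TAC), zbtb17 cKO mice after a sham operation (cKO sham), control mice after constriction (control TAC) and control mice after a sham operation (control sham). Mice were 8 to 10 weeks old before surgery, and hearts were taken after 4 weeks. Transverse aortic constriction (TAC) narrows the aorta, so that the left ventricle works against a raised pressure. cKO stands for a conditional knockout of Zbtb17, the gene of the transcription factor Miz1. The labels used here name neither the Cre driver nor the deleted part of the gene, nor the alleles that control mice carry.

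Chaperones of the heat shock families hold proteins in a foldable state, refold damaged ones and pass those beyond repair on for degradation. HSP70 proteins work in a cycle in which HSP40 proteins deliver the client and HSP110 proteins release the nucleotide, and HSP90 finishes the folding of kinases and hormone receptors. Small heat shock proteins bind unfolding proteins without ATP, and in heart muscle they sit at the Z-disc together with Bag3. On heat or other protein stress the transcription factor HSF1 binds heat shock elements, arrays of inverted GAA units, in the promoters of many of these genes. In RNA of heart tissue, a change in cell numbers and a change in RNA per cell cannot be told apart.

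Promoter sequences show which of the genes carry such elements close to their start. RefSeq promoter entries (GRCm38.p6) were at hand for 6 of the 10 genes, namely Hsph1, Dnajb1, Hspb1, Bag3, Hspd1 and Hspa4, and the 250 bases before each start were searched. The motifs were GAANNTTC and TTCNNGAA, both of which read the same on either strand, and the 3-unit forms GAANNTTCNNGAA and TTCNNGAANNTTC, each of which holds both of the shorter motifs. A 2-unit motif was found in Hsph1, Hspb1 and Hspd1. Counted by entry, since several genes have 2, it was in 4 of the 9 entries of these genes and in 12.84% of all 32851 promoter entries. The 2 Hsph1 entries overlap and share 1 motif site, so these 4 entries stand for only 3 genes. A 3-unit motif was found in 1 of the 9 entries, of Hspd1, and in 0.466% of all entries. The 4 sequences below are shown because they hold the motif, written in capitals, and because Hspa1a, the classical inducible HSP70 gene, gives the pattern to set the others against. They run 5' to 3' on the gene's strand: Hsph1 at chr5:149636337-149636586 (minus strand), Hspb1 at chr5:135887669-135887918 (plus strand), Hspd1 at chr1:55087933-55088182 (minus strand) and Hspa1a at chr17:34972157-34972406 (minus strand).
Hsph1: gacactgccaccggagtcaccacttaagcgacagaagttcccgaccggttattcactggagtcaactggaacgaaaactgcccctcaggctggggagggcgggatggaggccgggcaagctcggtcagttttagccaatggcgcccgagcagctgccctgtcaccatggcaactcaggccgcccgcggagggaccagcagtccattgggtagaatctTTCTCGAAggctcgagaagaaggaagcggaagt
Hspb1: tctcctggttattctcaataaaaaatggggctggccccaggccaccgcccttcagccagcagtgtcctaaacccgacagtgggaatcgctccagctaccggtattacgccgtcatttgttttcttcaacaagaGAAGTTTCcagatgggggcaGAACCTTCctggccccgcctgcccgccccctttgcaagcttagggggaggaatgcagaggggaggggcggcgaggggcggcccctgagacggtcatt
Hspd1: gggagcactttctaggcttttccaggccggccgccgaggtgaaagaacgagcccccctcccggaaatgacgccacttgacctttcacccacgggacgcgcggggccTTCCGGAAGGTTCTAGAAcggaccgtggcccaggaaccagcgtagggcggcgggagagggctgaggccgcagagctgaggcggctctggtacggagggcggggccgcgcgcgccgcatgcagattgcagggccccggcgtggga
Hspa1a: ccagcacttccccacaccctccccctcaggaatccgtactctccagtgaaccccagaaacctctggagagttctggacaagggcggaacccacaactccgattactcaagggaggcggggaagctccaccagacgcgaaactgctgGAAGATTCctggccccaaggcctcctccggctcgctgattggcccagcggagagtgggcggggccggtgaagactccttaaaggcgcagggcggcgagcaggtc
The Hsph1 motif began 33 bases before the start of the first of its 2 entries, the Hspb1 motifs 117 and 97 bases before it, and the Hspa1a motif 104 bases before it. In Hspd1, 3 overlapping 2-unit motifs began 144, 139 and 134 bases before the start of the second of its 2 entries, and the first entry held none. No match was found in Dnajb1, Bag3 or Hspa4, which says only that these letters are not in these windows.

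Array medians of the deposited log2 values lay between 4.85 and 4.98, and with 4 arrays a group it is the number of mice that sets how precise a mean can be. Zbtb17 averaged 6.50 ± 0.02 in cKO TAC and 6.52 ± 0.07 in cKO sham hearts, against 6.45 ± 0.11 in control TAC and 6.36 ± 0.13 in control sham hearts (SD, n = 4 each). cKO minus control, averaged over surgery, was 0.11 ± 0.06 on the log2 scale (SE, limma, adjusted p = 0.361), and since the deleted part is not known from the labels this probe set does not check the genotype. The 12 cardiomyocyte markers had mean log2 values of 12.9 to 13.1 on every array, while neutrophil markers were at 3.77 to 4.08 and lymphocyte markers at 4.22 to 4.41, around the filter of 4.37. In 3 sham hearts Atf3, a stress-induced transcription factor, was above 8: the cKO sham heart of replicate 1 had 9.58, and the control sham hearts of replicates 3 and 4 had 10.18 and 8.45. In the other 13 hearts it lay between 6.13 and 7.26. Myl7, an atrial myosin light chain, was above 6 in 6 hearts, which are cKO TAC replicates 1 and 2, cKO sham replicate 2, control TAC replicates 1 and 2 and control sham replicate 3. The labels name no batch.

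Hsph1 (probe set 10535904, gene at chr5:149616843-149636498 in GRCm38.p6), an HSP110 protein that recharges HSP70 and keeps aggregates soluble, had log2 values of 7.91, 7.60, 6.90 and 7.74 in cKO TAC hearts, against 9.02, 8.01, 7.84 and 7.93 in cKO sham hearts. In control hearts they were 7.12, 7.12, 7.74 and 7.46 after TAC, against 7.24, 7.54, 8.48 and 9.12 after sham. The 3 highest values belonged to the 3 sham hearts with high Atf3, and the groups overlapped in both genotypes. From the lowest heart, cKO TAC replicate 3, to the highest, control sham replicate 4, the signal differed by a factor of 4.66. Hspa4 (probe set 10385790, chr11:53259814-53300479), the second HSP110 protein, was at 9.62, 9.61, 9.55 and 9.64 in cKO TAC hearts, against 9.85, 9.73, 9.68 and 9.63 in cKO sham hearts. Control hearts had 9.38, 9.54, 9.65 and 9.47 after TAC, against 9.28, 9.53, 9.52 and 9.68 after sham. Hspa4 spanned a factor of 1.49 over all hearts, and cKO sham hearts were on the high side of control sham hearts with 1 control value, 9.68, among theirs.

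Hspa8 (probe set 10528021, chr9:40801276-40805202), the constitutive HSP70 that also drives clathrin uncoating and chaperone-mediated autophagy, had the strongest signal of the 9 probe sets. It was at 12.39, 12.31, 12.17 and 12.32 in cKO TAC hearts, against 12.76, 12.49, 12.40 and 12.42 in cKO sham hearts. All 4 cKO TAC hearts lay below all 4 cKO sham hearts, the narrowest gap being 12.39 against 12.40. In control hearts the values were 12.31, 12.18, 12.26 and 12.34 after TAC, against 12.23, 12.23, 12.66 and 12.69 after sham, so that 2 sham hearts lay above and 2 among the TAC hearts. Dnajb1 (probe set 10573198, chr8:83608175-83612653), the inducible HSP40 that hands clients to HSP70, was at 6.02, 5.71, 6.22 and 6.22 in cKO TAC hearts, against 7.58, 6.54, 6.04 and 6.38 in cKO sham hearts. Control hearts had 6.44, 6.06, 6.87 and 6.54 after TAC, against 6.25, 6.13, 6.94 and 6.76 after sham. The cKO sham replicate 1 heart stood highest, and control TAC replicate 3, at 6.87, lay between the other 2 sham hearts with high Atf3.

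Hsp90aa1 (probe set 10378848, chr12:110691036-110696395), the inducible cytosolic HSP90, had log2 values of 10.25, 10.14, 9.58 and 9.49 in cKO TAC hearts, against 11.38, 10.21, 10.07 and 10.12 in cKO sham hearts. In control hearts they were 9.62, 9.81, 9.99 and 9.83 after TAC, against 9.23, 9.87, 10.98 and 11.14 after sham. Again the 3 sham hearts with high Atf3 were the 3 highest of all 16, while control sham replicate 1 was the lowest, and the span between the extremes was a factor of 4.44. Hspd1 (probe set 10375240, chr1:55077833-55088243), the HSP60 that folds proteins in the mitochondrial matrix, was at 10.87, 10.57, 10.87 and 11.10 in cKO TAC hearts, against 11.14, 11.01, 10.95 and 11.01 in cKO sham hearts. Control hearts had 10.80, 10.94, 11.09 and 10.75 after TAC, against 10.76, 10.84, 10.99 and 11.17 after sham. Its TAC and sham values were intermixed in control hearts, and 1 cKO TAC heart, at 11.10, lay among the cKO sham hearts.

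Hspb1 (probe set 10408928, chr5:135887919-135889563), known as HSP25 in mouse and a guard of actin filaments, was at 10.23, 9.94, 9.59 and 9.76 in cKO TAC hearts, against 11.06, 10.01, 9.96 and 9.95 in cKO sham hearts. In control hearts it was at 9.48, 9.94, 9.75 and 10.12 after TAC, against 9.55, 9.84, 10.91 and 11.03 after sham. Its 3 highest values again came from the 3 sham hearts, and the rest of the sham hearts lay among the TAC hearts. Cryab (probe set 10585214, chr9:50745951-50756636), the alpha-B crystallin that binds desmin and titin, was at 11.58, 11.55, 11.42 and 11.46 in cKO TAC hearts, against 11.51, 11.43, 11.42 and 11.38 in cKO sham hearts. Control hearts had 11.36, 11.41, 11.36 and 11.40 after TAC, against 11.29, 11.29, 11.46 and 11.54 after sham. With a factor of 1.22 between the extremes it was the steadiest of the 9 genes, and every cKO TAC heart lay above every control TAC heart. Bag3 (probe set 10557992, chr7:128523583-128546981), a co-chaperone that joins HSP70 to small heat shock proteins and to autophagy, was at 9.92, 9.73, 9.57 and 9.63 in cKO TAC hearts, against 10.48, 9.86, 9.69 and 9.68 in cKO sham hearts. In control hearts it was at 9.34, 9.75, 9.61 and 9.45 after TAC, against 8.99, 9.80, 9.96 and 10.06 after sham. The 3 sham hearts were on top here too, by a margin of 9.96 against 9.92.

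**Figure D1:**
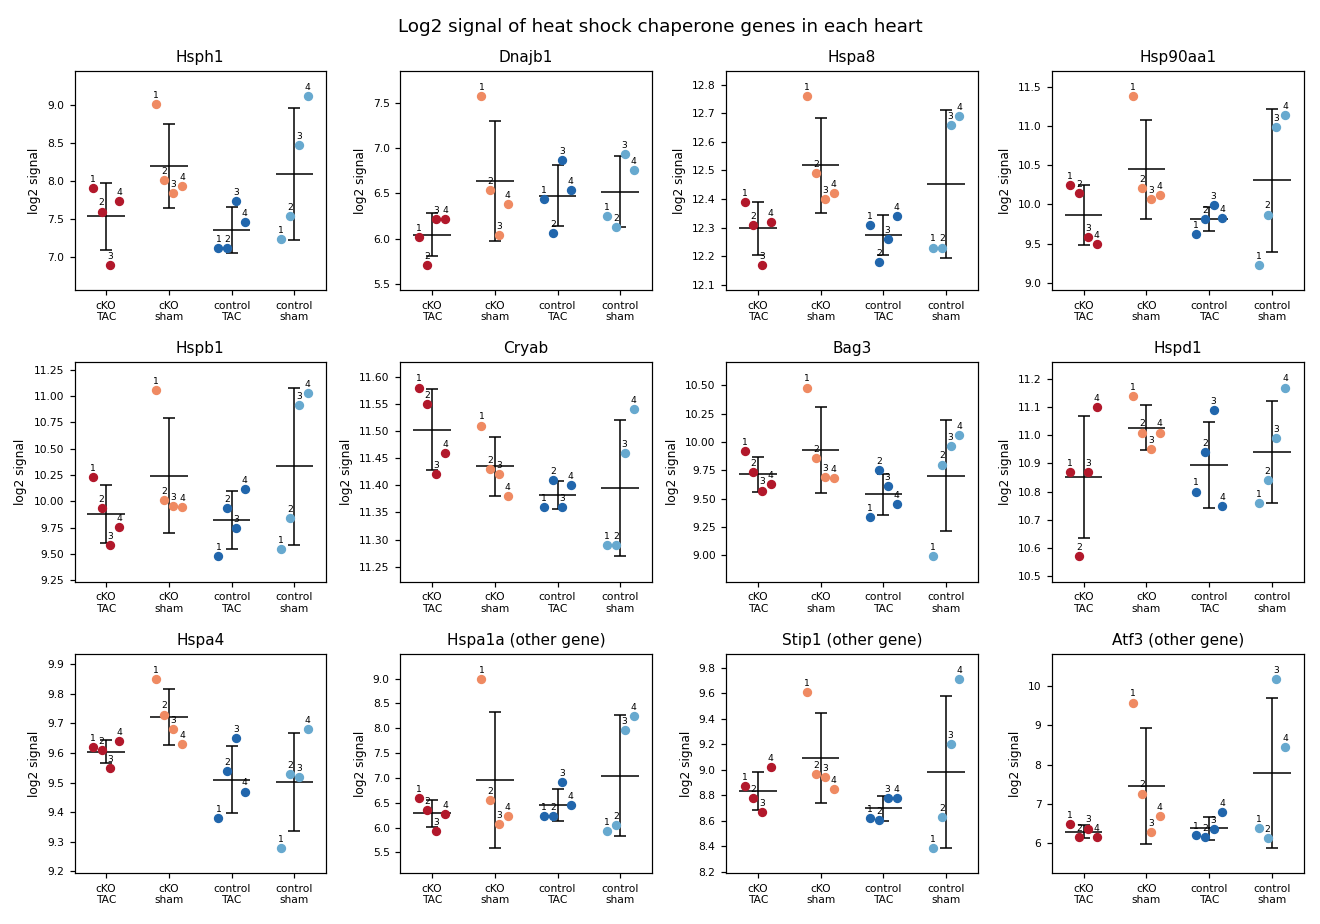
Log2 signal (vertical axes) of the 9 chaperone genes and of Hspa1a, Stip1 and Atf3 in each heart, by group; points are hearts labelled by replicate number, bars the mean and SD of 4 hearts. Replicate 1 of cKO sham and replicates 3 and 4 of control sham stand above the other hearts in Hsph1, Hspa8, Hsp90aa1, Hspb1, Bag3 and the 3 added genes.

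The 3 sham hearts with high Atf3 were the 3 highest of all 16 in 5 of the 9 genes, namely Hsph1, Hspa8, Hsp90aa1, Hspb1 and Bag3. Among all probe sets tested this order held for 205 of 21333, or 0.961%. The mean of the 9 genes, each centred on its own mean, stood at 0.70 for the cKO sham heart, replicate 1, and at 0.38 and 0.53 for the control sham hearts, replicates 3 and 4. The next heart, cKO sham replicate 2, was at 0.09, and the lowest, control sham replicate 1, was at -0.40, so that sham hearts held both ends of the range. The 8 TAC hearts lay between -0.29 and 0.04. The SD between hearts of a group was 0.29 after TAC against 0.78 after sham for Hsp90aa1, 0.082 against 0.22 for Hspa8 and 0.17 against 0.44 for Bag3. The ratio of these SDs was 0.37 for Hsp90aa1, 0.38 for Hspa8, 0.38 for Bag3, 0.42 for Hspb1, 0.52 for Hsph1 and 0.53 for Dnajb1. It was 0.58 for Cryab, 0.63 for Hspa4 and 1.34 for Hspd1, while the median over all probe sets was 0.92. The SD was thus lower after TAC in 8 of the 9 genes over all hearts. Without the 3 sham hearts with high Atf3 it was lower after TAC in 3, Hsp90aa1, Bag3 and Hspa4, and higher in the other 6. Hsph1 then had 0.38 after TAC against 0.16 after sham, Hspa8 0.082 against 0.033, Hspb1 0.27 against 0.15 and Hsp90aa1 0.29 against 0.32. These SDs are a description, were not tested, and without the 3 hearts rest on 5 sham hearts.

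TAC was compared with sham in cKO hearts to ask how pressure load changes these genes when Zbtb17 is targeted. No chaperone gene passed the test (limma, Benjamini-Hochberg adjusted p under 0.05), and neither did any other probe set: 0% of the 21333 tested were called, and 2.93% were lower after TAC at an unadjusted p under 0.05. The fold changes were negative for 8 of the 9 genes, with a median of -0.22 on the log2 scale against 0.0075 over all probe sets. On the log2 scale TAC minus sham was -0.66 ± 0.36 for Hsph1 (SE, limma, adjusted p = 0.748), -0.59 ± 0.28 for Dnajb1 (adjusted p = 0.731) and -0.58 ± 0.37 for Hsp90aa1 (adjusted p = 0.786). Of the chaperone genes, Dnajb1 had an unadjusted limma p of 0.0481 and the others were above 0.05. Hspa8, whose groups did not overlap, was at -0.22 ± 0.11 (SE, limma, adjusted p = 0.731), and 2.08% of all probe sets were lower in every cKO TAC heart than in every cKO sham heart. Hspb1 was at -0.36 ± 0.31, Bag3 at -0.21 ± 0.21, Hspd1 at -0.17 ± 0.11 and Hspa4 at -0.12 ± 0.08 on the log2 scale, and Cryab was at 0.07 ± 0.06 (SE). Without the 3 sham hearts with high Atf3, only 1 of which is a cKO heart, 8 of the 9 stayed negative and the median was -0.14. The heart concerned is cKO sham replicate 1: without it Hsph1 was at -0.39, Hsp90aa1 at -0.27, Dnajb1 at -0.28 and Hspb1 at -0.09. Without the 6 hearts with Myl7 above 6, cKO TAC replicates 3 and 4 remain against cKO sham replicates 1, 3 and 4. The cKO sham heart with high Atf3 is thus kept, in a smaller group. The median was then -0.35, with Hsp90aa1 at -0.99, Hsph1 at -0.94 and Hspb1 at -0.65. Dnajb1, Cryab and Hspd1 lay closer to 0 than with all hearts, Hspd1 at -0.05, and no chaperone gene passed.

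In control hearts the same comparison gave 8 of 9 negative fold changes, a median of -0.165 against 0.015 over all probe sets, and no call, with 0% of all probe sets called. No chaperone gene had an unadjusted p under 0.05, against 3.42% of all probe sets that were lower after TAC at that level. Hsph1 was at -0.73 ± 0.36 (SE, limma, adjusted p = 0.610), Hspb1 at -0.51 ± 0.31 and Hsp90aa1 at -0.49 ± 0.37 on the log2 scale. Hspa8 was at -0.18 ± 0.11 and Bag3 at -0.17 ± 0.21, and the other 4 genes lay between -0.045 and 0.0075. Leaving out control sham replicate 4 alone brought Hsph1 to -0.39, Hsp90aa1 to -0.21 and Hspb1 to -0.28, while leaving out control sham replicate 1, the lowest heart, brought them to -1.02, -0.85 and -0.77. Without the 3 sham hearts with high Atf3, 1 of the 9 genes was negative, Hsph1 at -0.03, and the median was 0.105. The sham side of this fit is control sham replicates 1 and 2 alone, and replicate 1 had the lowest chaperone mean of all hearts. Hsp90aa1 was then at 0.26, Dnajb1 at 0.29, Bag3 at 0.14 and Hspb1 at 0.13, each with a confidence interval that includes 0. Leaving out the 3 sham hearts with high Atf3 also takes away the highest sham values by choice, so it does not test whether sham and TAC differ. Without the 6 hearts with Myl7 above 6, control TAC replicates 3 and 4 remain against control sham replicates 1, 2 and 4. The median in control hearts was then -0.08, with Hsph1 at -0.37, Hsp90aa1 at -0.17 and Hspb1 at -0.21.

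**Figure D2:**
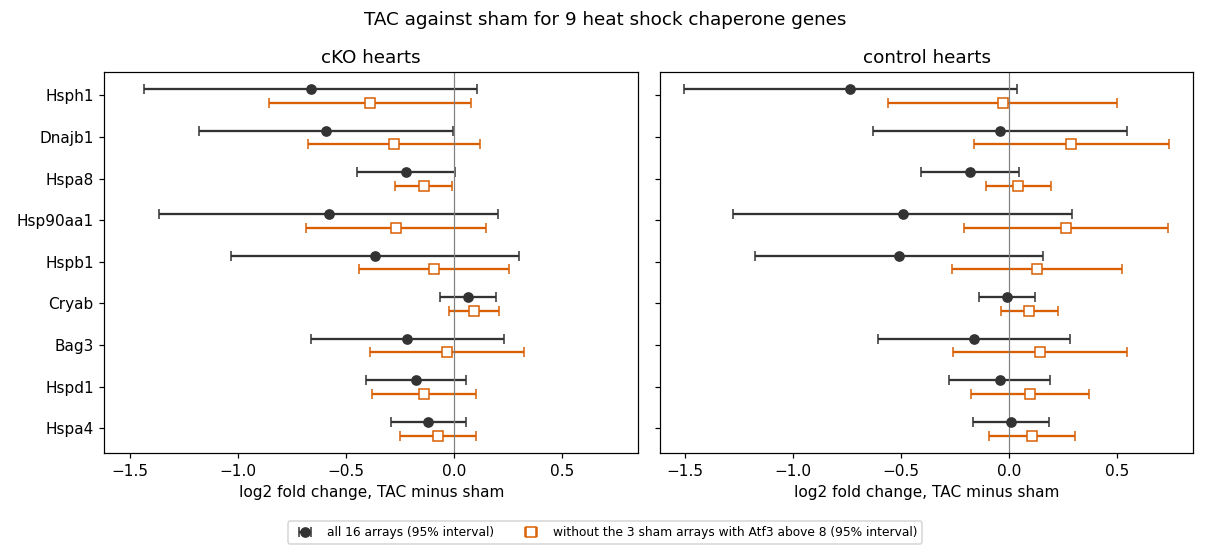
Log2 fold change of TAC over sham (horizontal axes) for the 9 chaperone genes in cKO and control hearts; circles use all 16 hearts, squares leave out the 3 sham hearts with Atf3 above 8, and bars are 95% confidence intervals of the fit. In control hearts 8 circles lie below 0 and 8 squares above it, the squares with only control sham replicates 1 and 2 as the sham side. In cKO hearts 8 of each lie below 0.

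Averaged over genotype, TAC hearts were lower in 8 of the 9 genes with a median of -0.20, against 0.010 over all probe sets. None passed, and 0% of all probe sets were called. Hsph1 was at -0.70 ± 0.26 (SE, limma, unadjusted p = 0.0152, adjusted p = 0.310) and Hspa8 at -0.20 ± 0.08 (unadjusted p = 0.0176, adjusted p = 0.321). These 2 of the 9 genes compare with 4.80% of all probe sets that were lower after TAC at an unadjusted p under 0.05. Hsp90aa1 was at -0.54 ± 0.26, Hspb1 at -0.44 ± 0.22, Dnajb1 at -0.32 ± 0.20, Bag3 at -0.19 ± 0.15, Hspd1 at -0.11 ± 0.08, Hspa4 at -0.06 ± 0.06 and Cryab at 0.03 ± 0.04 (SE). Without the 3 sham hearts with high Atf3 the median was 0.005 and 4 of 9 were negative, with Hsph1 at -0.21 and Hspa8 at -0.05. The interaction asked whether the response to TAC differed between genotypes, and it called no chaperone gene and 0% of all probe sets. The interaction estimate farthest from 0 was that of Dnajb1, at -0.55 ± 0.39 (SE, limma, adjusted p = 1), with a 95% interval from -1.38 to 0.28. It was within the error of 4 mice a group.

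cKO hearts were compared with control hearts to ask what the targeting of Zbtb17 does after each surgery. After TAC, no chaperone gene was called, against 0.00469% of all probe sets. Cryab averaged 11.50 ± 0.08 in cKO TAC and 11.38 ± 0.03 in control TAC hearts (SD, n = 4 each), a log2 difference of 0.12 ± 0.06 (SE, limma, adjusted p = 0.682). It was higher in all 4 cKO TAC hearts, as were 2.38% of all probe sets. After sham, none was called either, against 0.0234% of all probe sets. Hspa4 averaged 9.72 ± 0.09 in cKO sham and 9.50 ± 0.17 in control sham hearts (SD, n = 4 each), a log2 difference of 0.22 ± 0.08 (SE, limma, unadjusted p = 0.0173, adjusted p = 0.388). At an unadjusted p under 0.05, 5.96% of all probe sets were higher in cKO sham hearts, so 1 of 9 genes is close to that share.

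Averaged over surgery, 0.0188% of all probe sets and none of the chaperone genes were called in cKO against control hearts. Hspa4 was 0.16 ± 0.06 higher in cKO hearts on the log2 scale (SE, limma, unadjusted p = 0.0162, adjusted p = 0.235), and it was the 1 gene of 9 with an unadjusted p under 0.05, against 8.24% of all probe sets that were higher in cKO at that level. Bag3 was at 0.20 ± 0.15, Hsph1 at 0.14 ± 0.26, Hsp90aa1 at 0.10 ± 0.26, Cryab at 0.08 ± 0.04, Hspa8 at 0.045 ± 0.075 and Hspd1 at 0.02 ± 0.08. Dnajb1 was at -0.16 ± 0.20 and Hspb1 at -0.02 ± 0.22. The median of the 9 was 0.08, and 7 were positive. Single hearts moved it: the median was 0.0046 without cKO sham replicate 1, -0.0013 without control sham replicate 1 and 0.02 without control sham replicate 2, and array weights gave -0.0095. With 8 hearts a side, the 95% interval for Hsp90aa1 ran from -0.46 to 0.65 and that for Hspa8 from -0.12 to 0.21, both of which include 0. Without the 3 sham hearts with high Atf3, 1 from cKO and 2 from control mice, the median of the 9 was 0.17, Hsph1 was at 0.36, Hsp90aa1 at 0.32, Hspa8 at 0.12 and Hspb1 at 0.17, and none passed.

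Whether the genes move together among hearts was examined in the 13 hearts that remain without the 3 sham hearts with high Atf3. Those 3 were left out because they were the 3 highest in 5 of the 9 genes. The 36 pairs of genes had a median Pearson r of 0.52, with 20 pairs over 0.5 and 6 below 0. The highest was Bag3 with Hspa4, at 0.84, and the lowest Dnajb1 with Cryab, at -0.49. The 8 pairs that hold Dnajb1 had a median r of -0.05, and the 8 that hold Hspd1 had a median of 0.25. All genes of a heart share its RNA and its array, so these values describe the 13 hearts. For Hsph1, 8 relations were tested by permutation (two-sided) and adjusted over the 8. Hearts were permuted freely across groups, so differences between groups enter these p-values. How many other probe sets follow Hsph1 as closely was not counted. Hspa8 followed Hsph1 most closely, with r = 0.82 (permutation p = 0.0005, adjusted p = 0.004) and rho = 0.85 (permutation p = 0.00026, adjusted p = 0.00208). This holds for the chosen Hspa8 probe set, 10528021. Another Hspa8 probe set, 10584572, had r = 0.46 with the chosen one over the 16 arrays. Its relation to Hsph1 was not tested. Hspa4 had r = 0.71 (permutation p = 0.0084, adjusted p = 0.029) and rho = 0.78 (permutation p = 0.00226, adjusted p = 0.00904). Hsp90aa1 had r = 0.70 (permutation p = 0.0109, adjusted p = 0.029) and rho = 0.75 (permutation p = 0.00476, adjusted p = 0.0127). These 3 held without the 2 hearts farthest from the median of Hsph1, cKO TAC replicate 3 and control TAC replicate 1, at r = 0.86, 0.78 and 0.66.

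Hspb1 had r = 0.63 with Hsph1 (permutation p = 0.0232, adjusted p = 0.0464) and rho = 0.63 (permutation p = 0.0230, adjusted p = 0.0460), and its r was 0.39 without those 2 hearts. Leaving them out also narrows the range of Hsph1, and the drop was not tested. Bag3 had r = 0.54 (permutation p = 0.0662, adjusted p = 0.106), Hspd1 0.40 (permutation p = 0.187, adjusted p = 0.250), Cryab 0.34 (permutation p = 0.263, adjusted p = 0.300) and Dnajb1 0.09 (permutation p = 0.766, adjusted p = 0.766). Taken as deviations from the mean of each group, r with Hsph1 was 0.71 for Hspa8, 0.60 for Hspa4, 0.60 for Hsp90aa1, 0.59 for Hspb1, 0.50 for Cryab, 0.44 for Bag3, 0.26 for Hspd1 and 0.24 for Dnajb1. Within groups Hspa8, by its chosen probe set, was again the closest to Hsph1 and Dnajb1 the farthest.

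**Figure D3:**
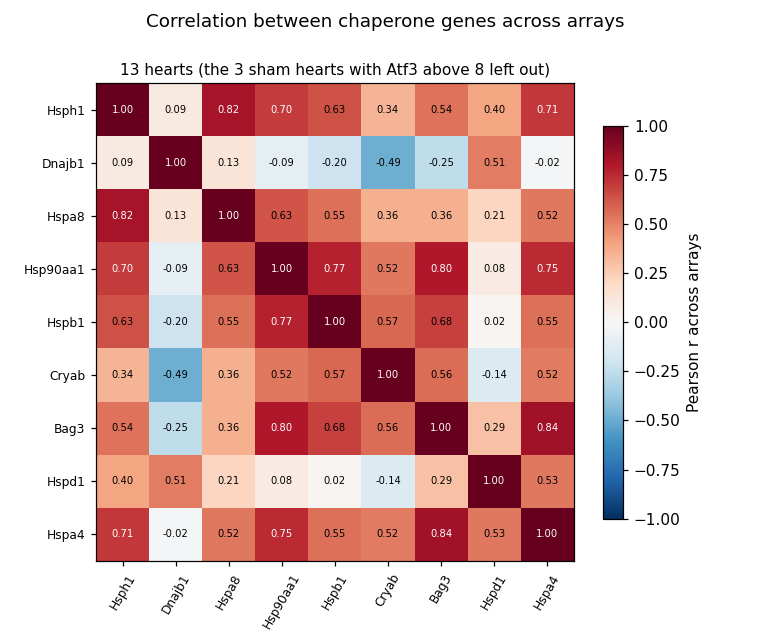
Pearson r between the 9 chaperone genes across the 13 hearts that remain without the 3 sham hearts with Atf3 above 8; rows and columns are genes, and each cell is 1 pair. Of the 15 pairs among Hsph1, Hspa8, Hsp90aa1, Hspb1, Bag3 and Hspa4, 14 are above 0.5, while the row of Dnajb1 runs from -0.49 to 0.51.

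The genes outside the 10 whose signal was most like the mean of the 9 across the 16 hearts were Dnajb4 (r = 0.96), Xirp1 (0.96), Hspa1a (0.95), Stip1 (0.95), P4ha1 (0.94), Zfp568 (0.94), Itga5 (0.94) and Tent5a (0.93). All 8 had the 3 sham hearts on top, which sets a high r by itself, and in the other 13 hearts their r lay between 0.67 for Hspa1a and 0.85 for Xirp1. Dnajb4 is an HSP40, Stip1 the HOP adaptor that joins HSP70 to HSP90, Xirp1 an actin-binding protein of the intercalated disc and P4ha1 a collagen prolyl hydroxylase. For Hsph1 the 8 most alike were Stip1 (r = 0.94), P4ha1, Ahsa2, Chordc1, Dnajc3, Zfp568, Ahsa1 and Tent5a (0.89), with r of 0.65 to 0.77 in the 13 hearts. Ahsa1 activates the ATPase of HSP90, Chordc1 is another HSP90 co-chaperone, and Dnajc3 is an HSP40 of the endoplasmic reticulum.

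Hspa1a, whose near-identical neighbour Hspa1b had no probe set of its own here, also had the 3 sham hearts on top. It was at 6.59, 6.35, 5.94 and 6.27 in cKO TAC hearts, against 8.99, 6.56, 6.07 and 6.23 in cKO sham hearts. In control hearts it was at 6.24, 6.24, 6.92 and 6.45 after TAC, against 5.94, 6.05, 7.96 and 8.24 after sham. Only cKO sham replicate 1 and control sham replicates 3 and 4 were above 7, and the log2 fold change of TAC over sham, -0.68 ± 0.59 in cKO and -0.59 ± 0.59 in control hearts (SE, limma, adjusted p = 0.865 and 0.813), was within its error. Hsf2, a second heat shock factor, lay between 6.53 and 7.15 on every array.

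A wider list of 61 chaperones and co-chaperones had 58 measured genes, all tested. TAC against sham was negative for 46 of 58 in cKO hearts, with a median of -0.14, for 41 of 58 in control hearts, with a median of -0.055, and for 45 of 58 averaged over genotype. Over all 21333 probe sets tested, 10181 were negative in cKO hearts, 9564 in control hearts and 9813 averaged over genotype. No gene of the list passed in any of these. Hspa5, the HSP70 of the endoplasmic reticulum known as BiP, was at 10.79, 10.76, 10.82 and 10.99 in cKO TAC hearts, against 11.57, 11.21, 11.10 and 11.22 in cKO sham hearts, without overlap. Over all probe sets, 2.08% were lower in every cKO TAC heart than in every cKO sham heart. The log2 fold change of Hspa5 was -0.44 ± 0.13 in cKO hearts (SE, limma, adjusted p = 0.668) and -0.34 ± 0.09 averaged over genotype (adjusted p = 0.233). Dnajb9, an HSP40 that serves BiP, was at -0.22 ± 0.07 averaged over genotype (SE, limma, adjusted p = 0.267). In the other direction stood Hspb6, a small heat shock protein of muscle, at 0.24 ± 0.07 averaged over genotype (SE, limma, adjusted p = 0.257), and Bag2, an inhibitor of the ubiquitin ligase CHIP, at 0.37 ± 0.11 in control hearts (SE, adjusted p = 0.477). In 14 of the 58 genes, 24.1%, against 0.961% of all probe sets, the 3 sham hearts were the 3 highest. These genes were Ahsa1, Bag5, Chordc1, Dnaja1, Dnajb4, Dnajb5, Hsp90b1, Hspa1a, Hspa5, Hyou1, Ptges3, Serpinh1, St13 and Stip1.

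Over all 21333 probe sets tested, 10418 were positive in cKO against control hearts averaged over surgery. Of the 58 genes of the wider list, 38 were positive with a median of 0.05, and none passed. The 2 with the smallest p, named after their values were seen, were Hspb7, a cardiac small heat shock protein, at 0.17 ± 0.05 (SE, limma, adjusted p = 0.195), and Hspa12a, a distant HSP70 relative, at -0.25 ± 0.08 (adjusted p = 0.197).

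Some other gene lists were highest in the same 3 hearts. The mean of the 24 immediate early genes, centred likewise, stood at 0.50 for the cKO sham heart and at 0.68 and 0.41 for the control sham hearts (replicates 3 and 4), against 0.17 at most in the rest. Atf3, by which the 3 hearts were picked, is 1 of the 24. Without it the other 23 averaged 0.41 for the cKO sham heart and 0.57 and 0.36 for the control sham hearts, against 0.16 at most in the rest. The 20 genes of the unfolded protein response averaged 0.32 for the same cKO heart and 0.23 and 0.26 for the same control hearts, against 0.11 at most in the rest. The lists of cardiomyocyte, atrial, endothelial, fibroblast, macrophage, smooth muscle, blood, fat and lymphocyte markers and of clock genes did not have these 3 hearts on top. The cardiomyocyte list varied between -0.17 and 0.09. Fos had 5.36 in that cKO heart, 5.42 and 5.12 in those control hearts, and between 4.57 and 5.10 in the other 13. The clock output gene Dbp ranged from 7.28 to 9.03 and Per2 from 5.67 to 7.24 over all hearts. Per2 was at 6.94 to 7.09 in cKO TAC, against 5.94 to 6.80 in cKO sham hearts. It was at 5.67 to 7.24 in control TAC, against 6.88 to 7.17 in control sham hearts. In TAC against sham, 12 of 16 clock genes were positive in cKO hearts (median 0.33) and 1 of 16 in control hearts (median -0.21). Of all 21333 probe sets, 11078 and 11661 were positive. The part of the clock in the chaperone values was not tested. What sets the 3 sham hearts with high Atf3 apart was not tested.

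**Figure D4:**
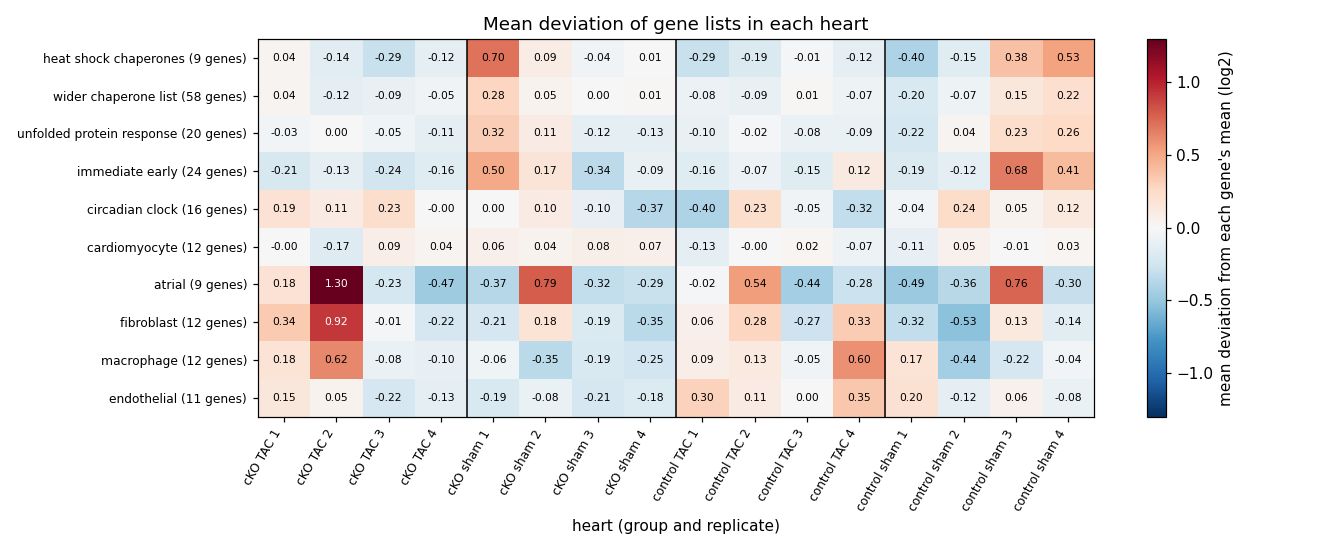
Mean deviation from each gene's mean (log2, colour and printed value) for the 9 chaperone genes and 9 other gene lists in each of the 16 hearts, ordered by group. The chaperone, unfolded protein response and immediate early rows are highest in cKO sham replicate 1 and control sham replicates 3 and 4; the atrial row is highest in cKO TAC replicate 2.

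Values of cell type markers stand beside these. In TAC against sham, 12 of 12 macrophage markers were positive in both genotypes, with a median log2 fold change of 0.405 in cKO and 0.34 in control hearts, and so were 11 of 12 fibroblast markers in cKO and 12 of 12 in control hearts (medians 0.39 and 0.32). Of 11 endothelial markers, 10 were positive in cKO and 11 in control hearts (medians 0.13 and 0.18). None of these markers passed the test. Over all 21333 probe sets tested, 11078 were positive in cKO and 11661 in control hearts. The mean level of the macrophage markers was 6.79 to 7.52 in cKO TAC, against 6.54 to 6.84 in cKO sham hearts, and 6.85 to 7.49 in control TAC, against 6.45 to 7.07 in control sham hearts. The cardiomyocyte markers had medians of -0.065 in cKO and -0.03 in control hearts. In cKO against control hearts, 0 of 11 endothelial markers were positive after either surgery. Averaged over surgery their median was -0.20, with 5 lower at an unadjusted limma p under 0.05 and none past the adjusted threshold. Of the 12 cardiomyocyte markers 10 were positive in that comparison, with a median of 0.06, and 4 were higher and 1 lower at that level. Over all 21333 probe sets tested, 10262 were positive after TAC and 10713 after sham. Averaged over surgery 10418 were positive, with 1758 higher and 1424 lower at that level. The 1 marker called was Myl2, the ventricular myosin light chain, named after its value was seen, which was lower in cKO hearts by the fit averaged over surgery, at -0.42 ± 0.04 (SE, limma, adjusted p = 0.000232). The part of these markers in the chaperone values was not tested.

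Several genes had more than 1 probe set. The other probe sets followed the chosen one closely for Hsp90aa1 (r = 0.998 and 0.987 over the 16 arrays), for Hspb1 (0.999) and for 1 of 2 in Hspa8 (0.996). The second Hspa8 probe set, 10584572, had r = 0.46, and it stood at 10.71 in control TAC replicate 4 and at 11.93 or above elsewhere. Its log2 fold change in control hearts was -0.58 ± 0.31 (SE), against -0.18 ± 0.11 for the chosen one. In cKO hearts it was at -0.25 ± 0.31 (SE), and its TAC and sham values overlapped, unlike those of the chosen one. The other Hspd1 probe set had r = 0.87 and a mean of 9.60 against 10.93. RefSeq lists 5 pseudogenes named for Hspd1. No source at hand gives the genomic position of a probe set, so the coordinates printed above are those of the genes. Which copies the probe sets of Hspa8, Hsp90aa1, Hspb1 and Hspd1 match is thus not known here. The probe set of highest mean need not be the one at the gene's own position.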

How the data were processed

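RNA of 16 mouse hearts, 1 array per mouse and 4 mice per group, had been hybridised to Affymetrix Mouse Gene 1.0 ST arrays. The authors deposited 1 table of log2 values per probe set; the submitters' processing notes name MAS5, and its role, its version and the method of scaling between arrays are not given in the sources used here. The values were used as deposited. Of 35556 probe sets, 21789 carried 1 gene symbol in the platform annotation, 1621 several and 12146 none, and 21698 of them were matched to RefSeq genes by Entrez ID. A gene was read from its probe set of highest mean. Probe sets with a mean at or below the 40th percentile (4.37) were left out, and 21333 were tested.

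The 4 group means were fitted with limma 3.58.1 in R 4.3.3 (eBayes with trend, 12 residual degrees of freedom), and 7 comparisons were adjusted by Benjamini-Hochberg over all probe sets, with a threshold of 0.05. The fit was tried on shuffled residuals of these arrays with known changes added, and the permutation p on random numbers with and without a relation. Correlations and permutation tests used Python 3.11.15, scipy 1.17.1 and pandas 2.3.3, and plots matplotlib 3.10.9. Alternatives were quantile normalization, median centring, no filter, a 60th percentile filter, no trend, the compared groups alone (4 comparisons), weighting arrays by quality, averaging all probe sets of a symbol, a block for the replicate number, leaving out each array, and leaving out the 3 sham arrays with Atf3 above 8 or the 6 arrays with Myl7 above 6. Same-numbered arrays of different groups did not deviate together (median r -0.03 over 24 pairs, 6 of them over 0.1), so the numbers were not taken to pair the mice.

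Genes of the wider chaperone list were named if among the 3 with the smallest unadjusted limma p under 0.05 in a comparison of TAC with sham. Other lists also held genes at that level, such as Dusp1, Manf, C1qa and Lum, most of which are not named above. Also named were a few heat shock, stress, marker and clock genes, and the 8 genes most correlated with the chaperone mean or with Hsph1. Hspb7, Hspa12a and Myl2 were named after their values were seen. The members, lists, thresholds and rules were chosen with earlier results of these data known. The labels give no batch, and say nothing of shared litters or surgery days.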

Additional observations from a re-analysis of the deposited data

Results flagged for a closer look

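In 3 of the 36 sets of 4 hearts examined, 1 heart stood far from the other 3, by a gap past the 95% critical value of Dixon's ratio of gap to range, and each time it was cKO sham replicate 1. Hsph1 was at 9.02 in that heart against 8.01 in the next, Hsp90aa1 at 11.38 against 10.21 and Hspb1 at 11.06 against 10.01. Chance alone sets apart about 1 in 20 such sets, here 1.8, and the 3 genes are from the same heart, so they are not independent. Control sham replicates 3 and 4, which were high together in the same genes, cannot be set apart by this measure because each is the other's neighbour.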

How the results depend on the processing

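No chaperone gene passed the adjusted threshold in any of the 7 comparisons under 10 other settings or with any 1 of the 16 arrays left out. The fit of the compared groups alone was run for the 4 comparisons of 2 groups, and no chaperone gene passed there either. Of 1034 recomputed values of single genes, 987 kept their direction and 47 turned. Many of the 1034 could not turn. The filters, the fit without trend, the compared groups alone and the balanced replicate block leave a fold change as it was. So does leaving out an array of a group that is not compared. The count of 987 is therefore no measure of how stable the directions are. With the replicate block the medians were for that reason as before (-0.22 for TAC in cKO hearts), and 0 members were called. Without the 3 sham arrays with high Atf3, the control sham group is replicates 1 and 2 alone. For TAC in control hearts, Dnajb1 then turned to 0.2875, Hspa8 to 0.0425, Hsp90aa1 to 0.2625 and Hspb1 to 0.1275. Cryab turned to 0.0925, Bag3 to 0.1425 and Hspd1 to 0.0950. Averaged over genotype, Dnajb1 turned to 0.0050, Hspb1 to 0.0171, Bag3 to 0.0558 and Hspa4 to 0.0150, and for cKO against control averaged over surgery Hspb1 turned to 0.1679. Without the 6 arrays with Myl7 above 6, Dnajb1 in control hearts was at 0.3250 and Cryab at 0.0067. Also for TAC in control hearts, Hspa4 was at -0.0223 with quantile normalization and at -0.0254 with array weights, Cryab at 0.0162 with median centring, and Hspd1 at 0.0162 with probe sets averaged. For cKO against control averaged over surgery, median centring gave 0.0206 for Hspb1, and array weights gave -0.0150 for Hsph1, -0.0095 for Hspa8 and -0.1165 for Hsp90aa1. Leaving out 1 array, TAC in control hearts ranged from -0.1733 to 0.0975 for Dnajb1, from -0.0475 to 0.0358 for Cryab, from -0.1100 to 0.0317 for Hspd1 and from -0.0667 to 0.0667 for Hspa4. For cKO against control averaged over surgery the ranges were -0.0013 to 0.3121 for Hsph1, -0.0829 to 0.2354 for Hsp90aa1, -0.1508 to 0.1012 for Hspb1 and -0.0187 to 0.0696 for Hspd1. Over all probe sets, cKO against control called 5 after sham and 4 averaged over surgery, and 27 and 81 without control sham replicate 4, none of them a chaperone gene examined here. The cause of these turns was not tested. The number of hearts, 4 a group, limits what could be detected.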
